A study of Mus musculus with 9 samples.

Results

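The 8 genes described here, Mbp, Sox10, S100b, Pmp22, Prx, Mag, Cnp and Erbb3, are genes of Schwann cells, the glial cells of peripheral nerve, and of the myelin sheath they form. They were taken by name and matched through their Entrez Gene ID, and all 8 were found among the 18830 genes of the read count files. RNA of the suprarenal abdominal aorta was sequenced in 9 libraries, 3 for each of 3 groups. All groups carried the same genotype, a knockout of ApoE, which makes mice prone to atherosclerosis. The first group was a sham control, for which the series' text speaks of saline, and the others were infused by osmotic minipump with angiotensin II (Ang II), a pressor hormone that induces abdominal aortic aneurysm in such mice, at 1000 ng/kg/min, for 14 days or for 28 days. The labels give no age, and no day on which the sham aortas were taken. The sample titles name the tissue as muscle, whereas the source field gives aorta. Nothing in the labels says that the 3 libraries of a group came from separate animals, so p-values measure only the spread between these libraries.

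Schwann cells arise from the neural crest. They wrap large axons in myelin and hold bundles of thin axons, such as those of sympathetic neurons, without myelin. Sox10 is the transcription factor that specifies the lineage and stays on in every mature Schwann cell. Erbb3 is the receptor through which these cells read neuregulin on the axon. Mbp, Pmp22, Prx, Mag and Cnp encode proteins of the myelin sheath or of the cytoplasm that supports it, and S100b encodes a calcium-binding protein used as a glial marker. In the aorta these cells accompany the nerves of the outer wall and of the tissue around it. Several of the 8 genes are also active elsewhere: S100b in fat cells, Pmp22 in fibroblasts, Prx in endothelium, and Mbp, through transcripts from an upstream start called Golli, in immune cells.

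Total expected counts, which are reads assigned to genes by estimation, ran from 9609690 to 14923936 per library. The 10 smooth muscle genes that define the labelled tissue were read in every library. Levels are given as CPM (reads of a gene per 1000000 reads of the library, with the library size adjusted by TMM). These 10 genes summed to 10900 to 33300 CPM in sham, 4010 to 18500 CPM at 14 days and 2340 to 7750 CPM at 28 days. The sums of sham and 28-day libraries did not overlap. Acta2, smooth muscle actin, was at 957 to 13400 CPM over the 9 libraries. Apoe, the targeted gene, was read in all 9 libraries at 22.5 to 648 CPM, and the counts do not show which part of the gene the reads cover. Libraries of the same group differed in nerve RNA: the summed level of 20 sympathetic neuron genes was 281, 12100 and 72.3 CPM in the sham aortas (replicates 1 to 3), 4840, 131 and 400 in the 14-day aortas and 79.2, 5480 and 2600 in the 28-day aortas. Skeletal muscle genes summed to 15700, 5370 and 114 CPM in 28-day replicates 1 to 3 and to at most 45 CPM in the other 6 libraries, where Myh4, a myosin of fast fibres, was at 0. In tissue RNA such as this, fewer cells of a type and less RNA per cell cannot be told apart.

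The promoter sequences below show the 5′ flank of the members that have an entry in the RefSeq table (GRCm38.p6), 5 of the 8. Sox10, Erbb3 and Mbp had no entry. Any link between these sequences and the levels of the genes was not tested. Each window ends at the base before a RefSeq start site, or, for Cnp, before the first annotated exon, and runs 5′ to 3′ on the strand of the gene. Capitals mark the core ACAAAG that SOX proteins bind, on either strand (CTTTGT on the opposite one). The windows are Mag at chr7:30914923-30915172 (minus strand), Cnp at chr11:100574689-100574903, Prx at chr7:27499074-27499323, S100b at chr10:76253586-76253835, and 2 of the 4 listed starts of Pmp22, at chr11:63128732-63128981 and chr11:63131207-63131456 (all plus strand).
Mag: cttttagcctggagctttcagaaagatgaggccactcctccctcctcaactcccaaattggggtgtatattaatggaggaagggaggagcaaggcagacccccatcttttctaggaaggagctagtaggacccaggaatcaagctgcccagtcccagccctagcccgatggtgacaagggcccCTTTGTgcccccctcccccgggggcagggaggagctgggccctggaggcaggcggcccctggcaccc
Cnp: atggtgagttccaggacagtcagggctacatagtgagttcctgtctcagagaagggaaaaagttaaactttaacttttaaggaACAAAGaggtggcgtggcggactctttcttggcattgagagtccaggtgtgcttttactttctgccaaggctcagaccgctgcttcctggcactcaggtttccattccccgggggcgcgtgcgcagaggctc
Prx: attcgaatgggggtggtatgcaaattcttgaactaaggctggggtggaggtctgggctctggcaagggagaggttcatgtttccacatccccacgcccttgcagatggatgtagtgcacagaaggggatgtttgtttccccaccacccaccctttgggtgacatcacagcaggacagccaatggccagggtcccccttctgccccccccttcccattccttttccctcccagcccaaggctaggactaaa
S100b: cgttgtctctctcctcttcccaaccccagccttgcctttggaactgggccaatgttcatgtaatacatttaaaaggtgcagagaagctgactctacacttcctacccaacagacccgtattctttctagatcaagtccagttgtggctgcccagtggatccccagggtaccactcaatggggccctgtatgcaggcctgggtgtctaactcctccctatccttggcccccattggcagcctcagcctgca
Pmp22 first start: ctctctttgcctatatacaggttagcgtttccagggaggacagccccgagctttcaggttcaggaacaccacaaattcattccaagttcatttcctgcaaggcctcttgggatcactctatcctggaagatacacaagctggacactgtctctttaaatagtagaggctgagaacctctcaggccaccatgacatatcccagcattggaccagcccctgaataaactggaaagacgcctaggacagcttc
Pmp22 second start: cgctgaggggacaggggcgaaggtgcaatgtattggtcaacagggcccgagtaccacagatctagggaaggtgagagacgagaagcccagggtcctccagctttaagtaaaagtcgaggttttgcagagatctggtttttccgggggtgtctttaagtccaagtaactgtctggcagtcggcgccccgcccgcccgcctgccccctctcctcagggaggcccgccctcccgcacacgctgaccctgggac
The SOX core ACAAAG lay 62 to 67 bases upstream of this Mag start (30914922), on the opposite strand. The same site lay 121 to 126 bases upstream of another listed Mag start, 30914863. The window of the Mag start at 30914321 had no match. For Cnp the core ACAAAG lay 162 to 167 bases upstream of the RefSeq start at 100574939. Neither this core nor ACAATG was found in the windows of Prx, S100b and Pmp22. At least 1 of these 2 cores, on either strand, was present in 25.2% of all 32851 windows of 250 bases. The core GTGGGCG of EGR factors, which work with SOX10 at myelin genes, was found in none of the 10 windows of the 5 genes, and in 7.02% of all windows. A match describes letters only, and no match says nothing of whether a factor acts on the gene. The counts are sums over all transcripts of a gene, so the Pmp22 counts do not separate its starts, nor do those of Mbp separate Golli from classic transcripts.

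Sox10, the lineage factor, was read in every library and varied 28.1-fold among them (Entrez 20665, GRCm38.p6 chromosome 15, 79154913 to 79164490). Its level was 6.29, 60.7 and 4.27 CPM in the sham aortas (replicates 1 to 3, the order kept throughout), 34.1, 2.16 and 12.1 in the 14-day aortas and 10.2, 27.7 and 16 in the 28-day aortas. Each group held a library above 27 CPM, and all 3 groups overlapped. The highest and lowest libraries belonged to the sham and 14-day groups, with 848 reads in sham replicate 2 and 30 reads in 14-day replicate 2. Erbb3, the neuregulin receptor, followed nearly the same order (Entrez 13867, chromosome 10, 128567523 to 128589635). Erbb3 levels were 5.11, 47.7 and 4.09 CPM in sham aortas, 21.5, 3.1 and 9.71 in 14-day aortas and 9.63, 25.5 and 11.4 in 28-day aortas. Within a library the ratio of Erbb3 to Sox10 stayed between 0.63 and 1.43 while Sox10 itself varied 28.1-fold.

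**Figure D1:**
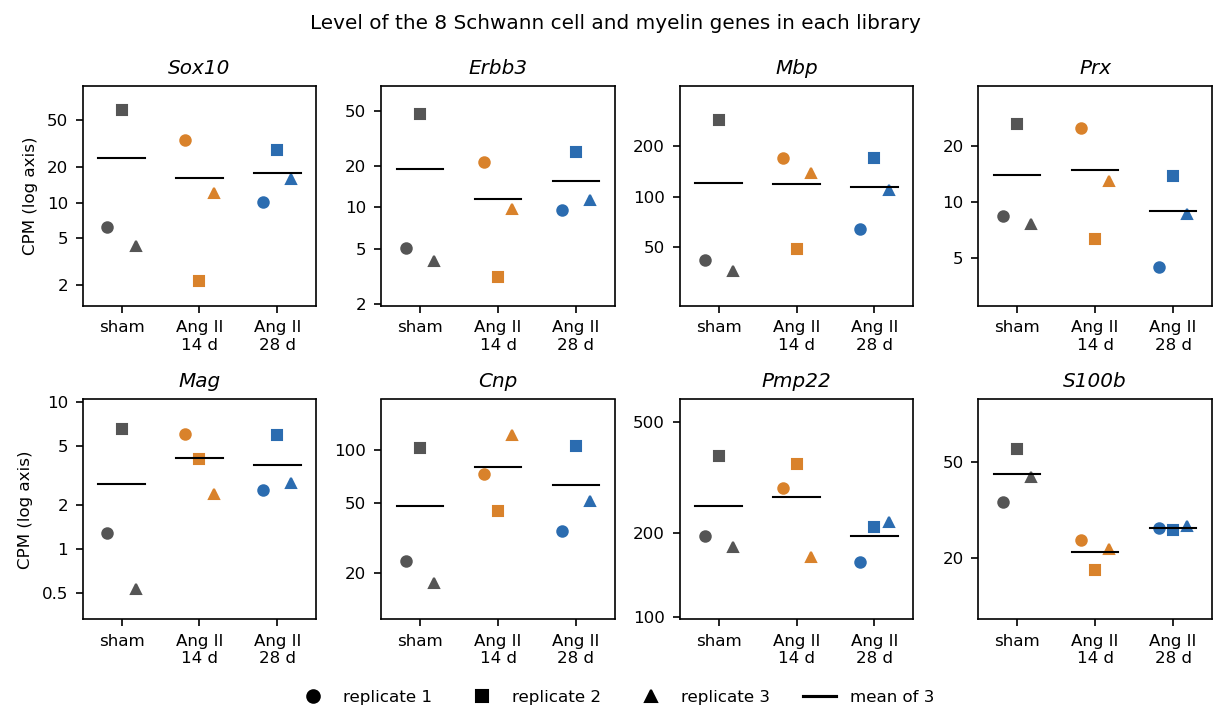
Level of each of the 8 genes in CPM (log axis) in sham, 14-day and 28-day Ang II aortas. Symbols are libraries by replicate number and lines are means of 3. Groups overlap for 7 genes, and S100b is higher in each sham library than in each Ang II library.

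Of the compact myelin genes, Mbp, a main protein of the sheath, came closest to Sox10 (Entrez 17196, chromosome 18, 82475091 to 82585637). Mbp was at 41.9, 286 and 35.8 CPM without Ang II, 169, 48.5 and 139 after 14 days of it and 64.5, 170 and 110 after 28. Sham replicate 2 was again the highest, and the other sham libraries were the lowest of the 9. Pmp22, a tetraspan protein of compact myelin whose gene dosage causes hereditary neuropathy, varied least among the 8 members, by 2.39-fold (Entrez 18858, chromosome 11, 63128982 to 63159547). Levels of Pmp22 were 194, 375 and 178 CPM in the sham libraries, 289, 352 and 163 in those of 14 days and 157, 209 and 219 in those of 28 days. Its level of 352 CPM in 14-day replicate 2, the library with the least Sox10, was the second highest of all. The 10 fibroblast genes summed to 5100 CPM in that library, the highest of the 9, and to 2080 CPM in sham replicate 2, where Pmp22 was highest. Their part in the Pmp22 level was not tested.

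Prx encodes periaxin, which anchors the Schwann cell's outer membrane to the basal lamina (Entrez 19153, chromosome 7, 27499305 to 27520041). It was at 8.42, 26 and 7.65 CPM in sham aortas, 24.9, 6.34 and 13 in 14-day aortas and 4.49, 13.7 and 8.66 in 28-day aortas. The first 3 libraries in its order were those of Sox10, in the same order. Endothelial genes summed to 903 to 2060 CPM over the 9 libraries, with Cdh5, an endothelial cadherin, at 139 to 386 CPM. The highest sum was in 28-day replicate 1, where Prx was lowest. In 14-day replicate 1 the sum was 1980 CPM and Prx was at 24.9 CPM. The part of endothelium in the Prx level was not tested. Mag encodes myelin-associated glycoprotein, a sialic acid-binding lectin of the Siglec family on the membrane facing the axon (Entrez 17136, chromosome 7, 30899175 to 30914922). It was the least abundant member, with 12, 91 and 6 reads in sham, 86, 57 and 35 at 14 days, and 23, 83 and 37 at 28 days. These are 1.28, 6.51 and 0.534 CPM without Ang II, 6.03, 4.11 and 2.38 after 14 days of it and 2.52, 5.95 and 2.81 after 28. In sham replicates 1 and 3 Mag was below all 6 Ang II libraries, and in sham replicate 2 it was above them.

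Cnp encodes an enzyme of the cytoplasm between myelin layers that binds tubulin and the membrane (Entrez 12799, chromosome 11, 100574909 to 100591875). It was at 23.3, 103 and 17.4 CPM in the sham libraries, 72.5, 44.6 and 121 in those of 14 days and 34.4, 105 and 50.9 in those of 28 days. Its highest library was 14-day replicate 3, which stood in the middle of the Sox10 order. In that library Cd79a, part of the B cell receptor, stood at 509 CPM, against 1 to 344 CPM in the other 8, and Cd3g of the T cell receptor at 93.8 CPM, against 1.07 to 30.6 CPM. In sham replicate 2, where Cnp was at 103 CPM, Cd79a was at 1 CPM and Cd3g at 1.07 CPM. The part of lymphocytes in the Cnp level was not tested. Exons of Cnp share 154 of 3639 bases with Dnajc7 on the opposite strand, and those of Prx share 300 of 5579 with the antisense gene Gm15541. The strandedness of the libraries is not given in the sources used here, so reads from these stretches cannot be told apart.

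S100b was the member whose groups did not overlap (Entrez 20203, chromosome 10, 76253836 to 76261319). S100b levels were 34, 56.6 and 43.4 CPM in sham aortas, 23.7, 17.9 and 21.9 in 14-day aortas and 26.6, 26.1 and 27.2 in 28-day aortas. All 6 Ang II libraries were below all 3 sham libraries, and all 3 libraries at 28 days were above all 3 at 14 days. Groups without overlap were common among all 14741 genes tested: 26.1% for 14 days against sham, 21.7% for 28 days against sham and 10.1% for 28 against 14 days. Between the groups lay 82.9% of its variance over the 9 libraries (log2 CPM), against a median of 33.1% over all genes tested. For Sox10, Erbb3 and Mbp that share was 4.86%, 5.68% and 5.28%, and for Pmp22, Prx, Mag and Cnp it was 14.9%, 12.4%, 23.1% and 22.4%.

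Levels of different genes were set side by side as CPM per kilobase of annotated exons. The median over the 9 libraries was 88.8 for Pmp22, 17.9 for S100b, 14 for Cnp, 13 for Mbp, 3.96 for Sox10, 1.61 for Erbb3, 1.55 for Prx and 0.69 for Mag. The ranges of Pmp22 and S100b over the libraries did not overlap, with a lowest value of 66.6 for Pmp22 and a highest of 38.1 for S100b. Every other pair of neighbours in this order overlapped. The exon lengths join all annotated transcripts, which lowers the value of a gene with long rare transcripts.

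Within a library the members split by their ratio to Sox10 (log2 of CPM plus 0.5 for both genes). The ratio of Erbb3 spanned 1.08 log2 over the 9 libraries and that of Mbp 1.97. The spans were wider for Prx at 2.56, Cnp at 3.31, S100b at 3.72, Mag at 3.92 and Pmp22 at 4.43. The library labelled 14-day replicate 2 had the highest ratio for 6 of the 7 genes, S100b being the exception. It also had the least Sox10 (2.16 CPM, 30 reads), which raises every ratio to Sox10. Mbp, Cnp and Mag were at 48.5, 44.6 and 4.11 CPM in that library, none of them at its highest level. There Mag was 1.9 times Sox10 in CPM, against 0.107 to 0.247 in the other 8 libraries. Cnp was 20.6 times Sox10, against 1.71 to 10, and Mbp 22.5 times, against 4.71 to 11.5. That library also had 12300 CPM summed over 10 leukocyte genes, against 297 to 3760 CPM in the other 8, and the part of leukocytes in these ratios was not tested.

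**Figure D2:**
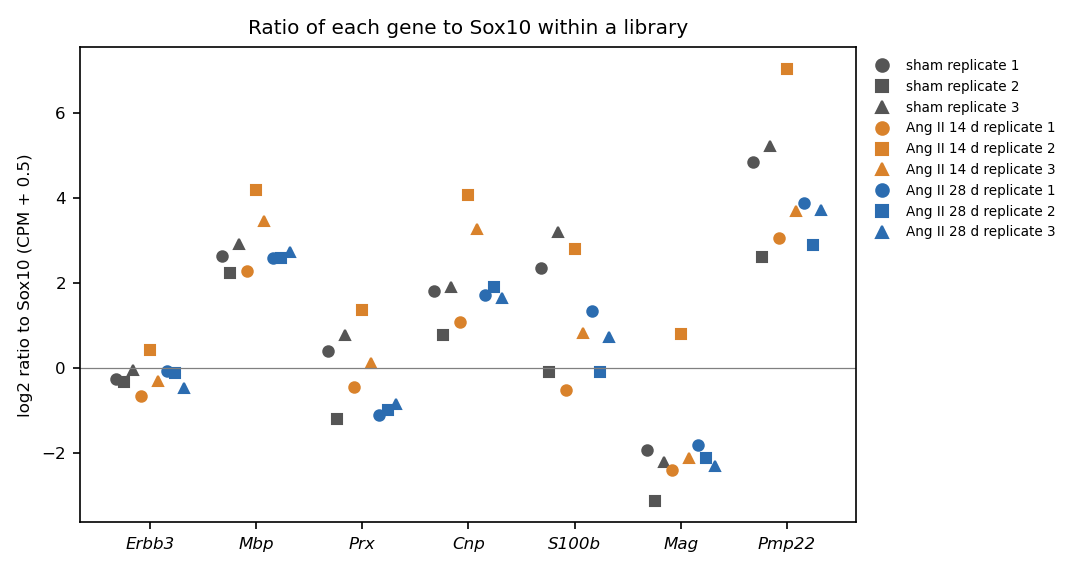
Ratio of each gene to Sox10 within each of the 9 libraries, as log2 of CPM plus 0.5 for both genes. Erbb3 stays within 1.08 log2, and 14-day replicate 2 (orange square) has the highest ratio for Erbb3, Mbp, Prx, Cnp, Mag and Pmp22. That library has the least Sox10 (2.16 CPM).

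Genes whose log2 CPM ran closely beside that of Sox10 over the 9 libraries included, by Pearson's r, Plekhb1 (0.994), Cdh19 (0.993), Ttyh1 (0.99), Kcna6 (0.989), Cyp2j9 (0.989), Cadm4 (0.988), Kcna1 (0.986), Sostdc1 (0.985) and Gpr37l1 (0.985), among genes of at least 5 CPM. Cdh19 encodes a cadherin of the Schwann lineage, Cadm4 an adhesion molecule between Schwann cell and axon, and Kcna1 a potassium channel of nerve. Among the members, r with Sox10 was 0.985 for Erbb3, 0.92 for Mbp, 0.799 for Prx, 0.691 for Cnp, 0.641 for Mag, 0.361 for S100b and 0.243 for Pmp22. Their ranks by r among the 14741 genes tested were 12, 310, 1150, 1670, 1919, 3534 and 4446, in that order. Th and Dbh, genes of sympathetic neurons, had r of 0.91 and 0.89. Without the libraries farthest from the median of Sox10, sham replicate 2 and 14-day replicate 2, r was 0.98 for Erbb3, 0.94 for Mbp, 0.7 for Prx, 0.8 for Cnp, 0.98 for Mag, -0.78 for S100b and 0.68 for Pmp22. These values describe 9 libraries that differ in depth and tissue makeup. Leaving out sham replicate 2 and 14-day replicate 2 moved r most for S100b, Pmp22 and Mag. Spearman's rho over the 9 libraries was 0.98 for Erbb3, 0.92 for Mbp, 0.88 for Prx, 0.68 for Cnp, 0.73 for Mag, 0.2 for S100b and 0.38 for Pmp22.

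Sox10 ran beside the neurons as well, over a much narrower range. Dbh, the enzyme that converts dopamine to noradrenaline, went from 0 CPM in sham replicate 3 to 1750 CPM in sham replicate 2. In sham replicate 3 the count of 0 allows up to 0.267 CPM (3 counts, counting error only), and 7 of the 20 neuron genes were at 0. That library still had 48 reads of Sox10, 46 of Erbb3 and 402 of Mbp. In 28-day replicate 1, where Dbh was at 0.547 CPM and Th at 1.09 CPM, Sox10 was at 10.2 CPM and Mbp at 64.5 CPM. The 4 libraries with the most neuron RNA, sham replicate 2, 14-day replicate 1 and 28-day replicates 2 and 3, were also the 4 with the most Sox10. Ngfr, the neurotrophin receptor shared by neurons and non-myelinating Schwann cells, went from 1.01 to 623 CPM.

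**Figure D3:**
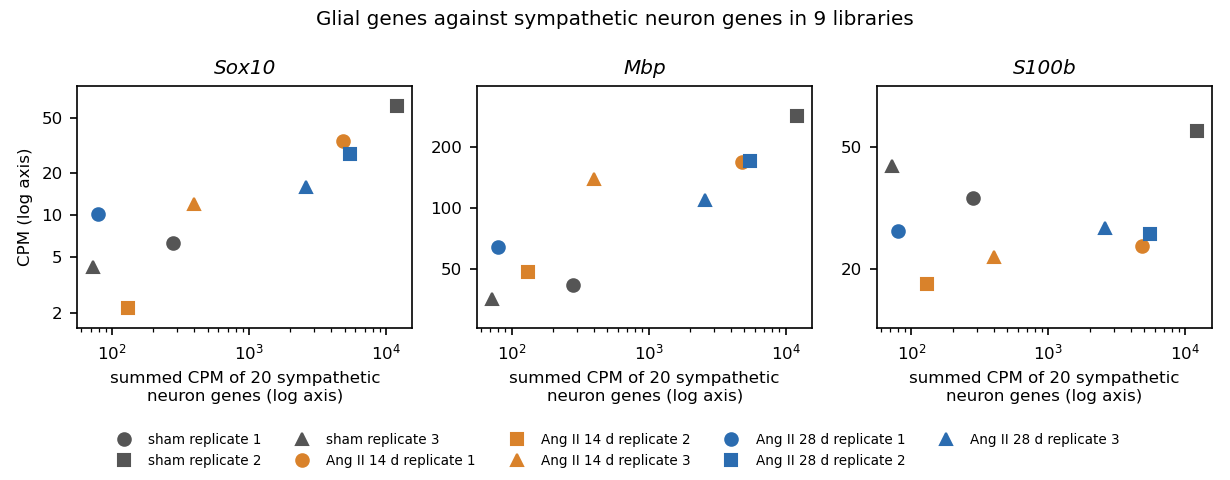
Level of Sox10, Mbp and S100b (CPM, log axis) against the summed level of 20 sympathetic neuron genes (CPM, log axis) in the 9 libraries, coloured by group with a symbol for each replicate number. Sox10 is highest in sham replicate 2 (60.7 CPM, neuron sum 12100 CPM) and is still 10.2 CPM in 28-day replicate 1, where the neuron sum is 79.2 CPM.

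Markers of related cells were checked. Of 10 genes of oligodendrocytes, the myelin-forming cells of the brain and spinal cord, 5 or 6 were at 0 in each library. Mog was at most 0.272 CPM and Olig2 at most 0.0759 CPM. Other genes of that list were read, among them Myrf, a transcription factor of central myelination, at 3.11 to 46.9 CPM, Cldn11, a claudin, at 0.445 to 10.8 CPM and Sox8 at 0.72 to 3.65 CPM. Myrf was highest in sham replicate 1, where Sox10 was low. Myrf averaged 25.1 ± 19.7 CPM in sham, 8.24 ± 2.03 CPM at 14 days and 4 ± 1.2 CPM at 28 days (SD, n = 3). Its log2 fold change at 14 days was -1.6 ± 0.57, with overlapping groups (edgeR adjusted p = 0.155, DESeq2 adjusted p = 0.0528). At 28 days it was -2.65 ± 0.6 (edgeR adjusted p = 0.203, DESeq2 adjusted p = 0.00106). DESeq2 called 2.71% of its genes as lower at 28 days. The 8 melanocyte genes summed to 26.1 to 41.1 CPM, most of it from Kit, a receptor also found on mast cells, at 10.7 to 24.3 CPM and Mitf, a factor of several cell types, at 9.57 to 25.6 CPM. Of the pigment genes, Dct was between 0.152 and 1.39 CPM and Tyr between 0.0715 and 1 CPM. Myrf, Cldn11, Sox8, Kit, Mitf and Tyr were named after their values were seen.

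The first comparison set the 14-day Ang II aortas against the sham aortas, to see how transcripts differ early in the aneurysm model. S100b averaged 44.7 ± 11.3 CPM in sham and 21.2 ± 2.99 CPM at 14 days (SD, n = 3), a log2 fold change of -1.08 ± 0.21 (SE; 95% interval -1.55 to -0.6). Its adjusted p was 0.117 by edgeR's quasi-likelihood test, over the threshold of 0.05, and 0.000688 by DESeq2, which called 4.8% of the genes it tested as lower. Its groups did not overlap, which held for 1 of the 8 members and for 26.1% of all 14741 genes tested, 13.5% on the lower side. Sox10 averaged 23.7 ± 32 and 16.1 ± 16.4 CPM, Erbb3 19 ± 24.9 and 11.4 ± 9.33 CPM, and Mbp 121 ± 143 and 119 ± 62.7 CPM (SD, n = 3). The log2 fold changes were -0.56 ± 1.17 for Sox10, -0.73 ± 1.04 for Erbb3, -0.03 ± 0.85 for Mbp, 0.11 ± 0.37 for Pmp22, 0.07 ± 0.67 for Prx, 0.58 ± 0.86 for Mag and 0.72 ± 0.74 for Cnp.

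None of these 7 members passed, with edgeR adjusted p-values of 0.603 to 0.986, and edgeR called 0% of all genes (0 of 14741). At an unadjusted p under 0.05 stood 3460 genes (23.5%) and 1 member, S100b, on the side where 10.4% of genes stood, and DESeq2 called 1970 genes (13.4%) and the same member. Of the 8 members 4 were higher and 4 lower, with a median of 0.02, against 45.2% higher and a median of -0.07 over all genes tested. The intervals were wide: that of Sox10 ran from -3.25 to 2.13 log2, so that a change of several-fold either way was not detectable here. Without sham replicate 2, the log2 fold changes of Sox10, Erbb3 and Mbp were 1.61, 1.31 and 1.61, and those of Mag, Cnp, Prx and Pmp22 were 2.2, 1.96, 0.88 and 0.53. All 7 were then positive and none passed, with edgeR adjusted p-values from 0.178 (Cnp) to 0.432 (Prx). With the mean level of the sympathetic neuron list as a covariate, chosen after seeing the data, the SE of Sox10 was 0.55 in place of 1.17 and its log2 fold change -0.27.

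The second comparison set the 28-day Ang II aortas against the same sham aortas. S100b averaged 26.6 ± 0.55 CPM (SD, n = 3), with a log2 fold change against sham of -0.75 ± 0.21 (95% interval -1.22 to -0.27). Its adjusted p was 0.217 by edgeR and 0.0371 by DESeq2, which called 2.71% of its genes as lower. It was again the 1 member of 8 without overlap, against 21.7% of all genes, 9.46% on the lower side. Cnp and Mag had log2 fold changes of 0.4 ± 0.74 and 0.43 ± 0.86, and Mbp, Sox10, Erbb3, Pmp22 and Prx of -0.08 ± 0.85, -0.4 ± 1.17, -0.29 ± 1.03, -0.35 ± 0.37 and -0.65 ± 0.68. Among the members 2 were higher and 6 lower, with a median of -0.32, and over all genes 40.7% were higher with a median of -0.08. edgeR called 0% of genes (0 of 14741). At an unadjusted p under 0.05 stood 2042 genes (13.9%, and 5.89% as lower) and S100b alone of the members, and DESeq2 called 970 genes (6.62%) and S100b. Without sham replicate 2, Sox10, Erbb3 and Mbp were at 1.77, 1.75 and 1.56 log2, Mag and Cnp at 2.05 and 1.63, and Prx and Pmp22 at 0.16 and 0.06, and none passed.

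Both comparisons share the sham libraries, so the direction of S100b in them is not independent. In S100b, sham replicate 2 was the highest library, and without it the log2 fold change was -0.87 at 14 days and -0.54 at 28 days. Markers of fat, where S100b is also made, were read beside it. The 8 brown fat genes summed to 4690 to 9880 CPM in sham, 1130 to 2760 CPM at 14 days and 2070 to 5750 CPM at 28 days, and 10 general adipocyte genes to 14600 to 23100, 6170 to 17300 and 13100 to 24100 CPM, with none at 0 in any library. Adipoq, the fat cell hormone adiponectin, lay between 748 and 1340 CPM in sham aortas, 230 and 955 in 14-day aortas and 623 and 1310 in 28-day aortas. The brown fat list was used as a covariate, chosen after seeing the data. The log2 fold change of S100b was then -0.98 at 14 days and -0.72 at 28 days. Its edgeR p-values were 0.0291 and 0.0158 unadjusted, and 0.88 and 0.398 adjusted. With the sympathetic neuron list as a covariate the log2 fold change of S100b was -1.08 and -0.77. Brown fat sums at 14 days did not overlap those of sham, so a covariate cannot separate fat from group there. The part of fat in the S100b level was not tested.

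The later time was compared with the earlier one to see whether levels differed between 14 and 28 days. S100b was 0.33 ± 0.21 log2 higher at 28 days (95% interval -0.14 to 0.8, edgeR adjusted p = 0.774), although its groups did not overlap, as for 10.1% of all genes and 4.35% on the higher side. The other log2 fold changes were -0.05 ± 0.85 for Mbp, 0.16 ± 1.17 for Sox10, 0.44 ± 1.04 for Erbb3, -0.46 ± 0.37 for Pmp22, -0.72 ± 0.68 for Prx, -0.15 ± 0.85 for Mag and -0.32 ± 0.74 for Cnp. Of the members 3 were higher and 5 lower, with a median of -0.1, against 44.8% higher and a median of -0.05 over all genes. edgeR called 0% of genes (0 of 14741). At an unadjusted p under 0.05 stood 903 genes (6.13%) and no member, and DESeq2 called 118 genes (0.805%) and no member. The spread of Sox10 within a group, as highest over lowest library, was 14.2-fold in sham and 15.8-fold at 14 days, and 2.72-fold at 28 days.

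**Figure D4:**
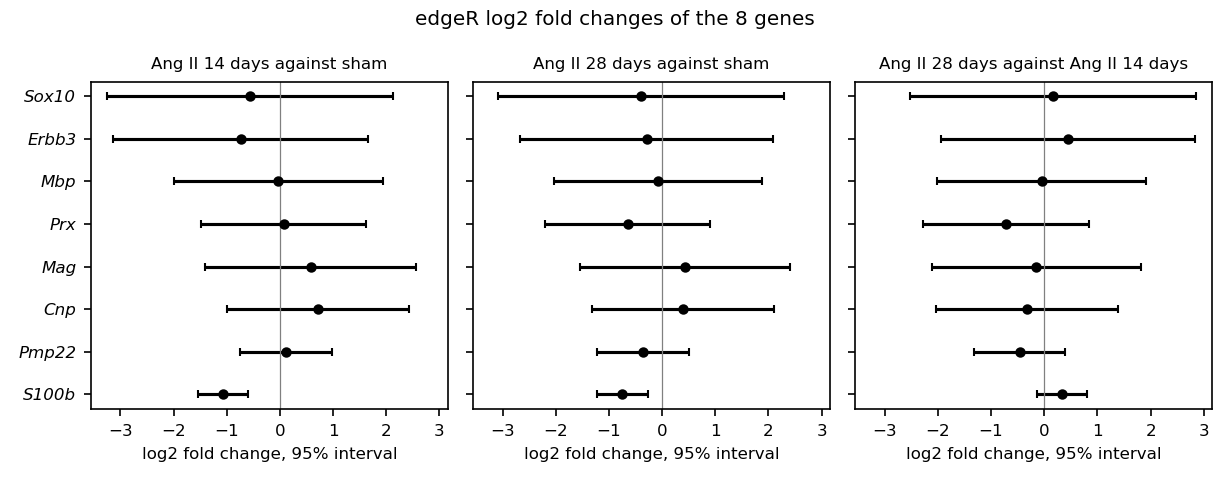
edgeR log2 fold changes of the 8 genes with 95% intervals in the 3 comparisons, from all 9 libraries. The interval excludes 0 for S100b alone, at 14 and 28 days against sham (-1.08 and -0.75), and its adjusted p-values over all genes were 0.117 and 0.217.

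The neuregulin pathway around ERBB3 was read from 18 further genes, all tested. At 14 days 7 were higher and 11 lower than sham, with a median of -0.15, and at 28 days 6 and 12, with a median of -0.23. edgeR called none of them at either time. At an unadjusted p under 0.05 stood 4 and 1 of the 18, against 23.5% and 13.9% of all genes, and DESeq2 called 3 and 1, against 13.4% and 6.62%, so that these counts were near or below those over all genes. Nrg1, the ligand that axons present to ERBB3, had 0.852, 23.7 and 0.267 CPM in the sham libraries, 7.78, 0.648 and 0.543 in those of 14 days and 0.219, 9.46 and 5.32 in those of 28 days. It was at 5.32 CPM or more in the 4 neuron-rich libraries and under 1 CPM in the other 5. Erbb2, the partner that gives ERBB3 its kinase activity, lay between 10.9 and 16.7 CPM in all 9, where Erbb3 varied 15.4-fold. Erbb4, another neuregulin receptor, had 6.82, 2.65 and 5.16 CPM in sham aortas, 1.61, 1.37 and 1.63 in 14-day aortas and 1.53, 0.645 and 1.82 in 28-day aortas. Its groups did not overlap with sham at either time (log2 -1.66 ± 0.51 and -1.86 ± 0.51, edgeR adjusted p = 0.13 and 0.217, DESeq2 adjusted p = 0.0277 and 0.02), and it was named after its values were seen. Such a lack of overlap held for 26.1% and 21.7% of all genes, 13.5% and 9.46% on the lower side. Of the 18 genes, 2 lay wholly above sham and 3 wholly below at 14 days, and 2 and 2 at 28 days.

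Among 20 other genes of peripheral myelin, 19 were tested. At 14 days 3 were higher and 16 lower than sham, with a median of -0.3, and at 28 days 2 and 17, with a median of -0.44. edgeR called none of them (1 and 0 at an unadjusted p under 0.05, against 23.5% and 13.9% of all genes), nor did DESeq2. These lists hold genes that vary together, so their counts by direction are not counts of independent genes.

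Of 14 transcription factors of the lineage, 5 were higher and 9 lower at 14 days (median -0.42) and 2 and 12 at 28 days (median -0.18). Egr2, which switches on the myelin program in Schwann cells and is also induced in activated leukocytes, did not follow Sox10 (r = -0.17 over the 9 libraries). It had 1.92, 3.08 and 3.56 CPM without Ang II, 4.76, 10.4 and 6.92 after 14 days of it and 5.36, 8.03 and 4.78 after 28, so that all 6 Ang II libraries were above sham. Groups without overlap with sham, in either direction, made up 26.1% of all genes at 14 days and 21.7% at 28 days. The log2 fold changes of Egr2 were 1.36 ± 0.41 and 1.08 ± 0.41 (edgeR adjusted p = 0.129 and 0.29, DESeq2 adjusted p = 0.0286 and 0.172). The 10 leukocyte genes summed to 297 to 1490 CPM in sham, 2220 to 12300 CPM at 14 days and 2000 to 3580 CPM at 28 days, and their part in the Egr2 level was not tested. Pou3f1, which acts before Egr2 in myelination, was between 0.072 and 2.29 CPM, and Jun, a factor of repair Schwann cells and of many other cells, between 69.9 and 108 CPM.

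Of 18 genes of non-myelinating and repair Schwann cells, 16 were tested, with 2 higher and 14 lower than sham at each time and medians of -0.63 and -0.45. Cdh19 was -1.06 ± 1.29 and -0.43 ± 1.28 log2 from sham. Ncam1, a neural cell adhesion molecule also found on muscle, had 269, 216 and 157 CPM in the sham libraries, 122, 35.1 and 58.6 in those of 14 days and 23.3, 89.3 and 49.1 in those of 28 days. All 6 Ang II libraries were below sham, at -1.57 ± 0.58 and -1.99 ± 0.59 log2 (edgeR adjusted p = 0.164 and 0.223, DESeq2 adjusted p = 0.0501 and 0.016). Groups without overlap with sham made up 26.1% and 21.7% of all genes, 13.5% and 9.46% on the lower side. edgeR called none of these 2 lists at either time. At an unadjusted p under 0.05 stood 2 and 3 of the 14 factors and 1 and 1 of the 16 others, against 23.5% and 13.9% of all genes. DESeq2 called 1 and 0 of the factors and 0 and 1 of the others, against 13.4% and 6.62% of all genes.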

How the data were processed

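Libraries of aortic RNA were made with an MGI mRNA kit, per the labels. The deposited values are expected counts per gene, 1 file per library, which the authors made with tools named as HISAT2 2.2.1, Bowtie2 2.4.5 and RSEM 1.3.1 on GRCm38.p6, per the submitters' processing notes. The annotation, the strandedness and the role of each tool were not given in the sources used here. Estimated counts share ambiguous reads, and 9.77% to 11.04% of genes per library were not whole. They were rounded.

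Entrez IDs were matched to symbols in RefSeq GRCm38.p6 (18775 of 18830). Exon lengths came from GENCODE M21. edgeR 4.0.16 (TMM, filterByExpr, robust quasi-likelihood fit of all 9 libraries, R 4.3.3) tested 14741 genes, Benjamini-Hochberg adjusted over all, threshold 0.05. DESeq2 1.42.0 was an alternative. All 8 members passed the filter. The SE is the log2 fold change over the square root of F. Scripts were tested on simulated data.

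The members and lists were chosen with earlier results of these data known. Named were the members, fixed examples of each list, and the 10 genes most like Sox10 (mean of at least 5 CPM, log2 CPM with prior count 2). Cd79a, Cd3g, Erbb4 and list genes outside those examples were named after their values were seen. Values of some genes that this rule names are not reported here. FPKM values were planned for levels between genes and were not used here.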

Additional observations from a re-analysis of the deposited data

How the results depend on the processing

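The genes called (0 in each comparison) were 1970, 970 and 118 by DESeq2 at 14 days against sham, 28 days against sham and 28 against 14 days. At 14 days, 1 gene passed with the replicate block (Plac8) and 1 in a fit of the compared groups alone (Marco), and none is a member. With 1 library left out, 0 to 7 genes passed at 28 days against sham, 5 of them without sham replicate 2 and 7 without 28-day replicate 3. S100b kept its direction in every setting and passed by DESeq2 at both times against sham. RLE factors, either filter on low counts and fits of 2 groups changed no member's direction or call.

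The labels do not say whether the replicate numbers pair the libraries. Correlations of same-numbered deviations from the group mean ran from -0.55 to 0.65, and those of other pairs from -0.73 to 0.72. These correlations cannot decide whether libraries are paired. With the replicate block, log2 fold changes turned to 0.67 for Mbp, 0.31 for Sox10 and 0.16 for Erbb3 at 14 days, 0.27, 0.16 and 0.19 at 28 days, and -0.15 for Sox10 at 28 against 14 days. With the neuron covariate, Mbp turned to 0.4 at 14 days, and Mbp, Sox10 and Erbb3 to 0.18, 0.16 and 0.18 at 28 days. With the brown fat covariate, Pmp22, Prx, Mag and Cnp turned to -0.83, -0.86, -1.42 and -0.17 at 14 days, and Mbp, Pmp22, Mag and Cnp to 0.66, 0.29, 1.46 and 0.27 at 28 against 14 days. The cause was not tested.

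With each library left out, values at 14 days against sham ran from -0.44 to 1.61 for Mbp, -1.74 to 1.61 for Sox10, -0.11 to 0.53 for Pmp22, -0.54 to 0.88 for Prx, 0.14 to 2.2 for Mag, 0.28 to 1.96 for Cnp, -1.57 to 1.31 for Erbb3 and -1.24 to -0.87 for S100b. At 28 days against sham they ran from -0.49 to 1.56 for Mbp, -0.86 to 1.77 for Sox10, -0.51 to 0.06 for Pmp22, -1.09 to 0.16 for Prx, -0.07 to 2.05 for Mag, -0.17 to 1.63 for Cnp, -0.85 to 1.75 for Erbb3 and -0.91 to -0.54 for S100b. The highest value of each member against sham came without sham replicate 2. At 28 against 14 days they ran from -0.44 to 0.29 for Mbp, -0.35 to 1.33 for Sox10, -0.64 to 0.21 for Mag, -0.9 to 0.11 for Cnp, -0.12 to 1.27 for Erbb3, -0.72 to -0.21 for Pmp22, -1.16 to -0.11 for Prx and 0.23 to 0.42 for S100b. No member passed in any of these fits. A pseudocount of 0.1 moved no span of a ratio to Sox10 by more than its SD over libraries. The planned check of levels against FPKM was not run. Mag, with as few as 6 reads, is limited by depth.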

Other observations

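The nerve sheath was read from 12 perineurial and endoneurial genes, which summed to 224, 819 and 154 CPM in the sham aortas (replicates 1 to 3), 474, 194 and 276 in the 14-day aortas and 194, 533 and 344 in the 28-day aortas. The 3 highest libraries were those with the most Sox10, and 2 of the 12 genes were higher and 10 lower than sham at each time, with medians of -0.64 and -0.15 log2 and none called by edgeR (2 and 0 at an unadjusted p under 0.05, against 23.5% and 13.9% of all genes) or DESeq2. Nrg4, a neuregulin of fat cells that binds ERBB4 rather than ERBB3, had 78.3, 51.6 and 65 CPM in sham aortas, 47, 15 and 40.3 in 14-day aortas and 84, 37 and 94.5 in 28-day aortas, and was named after its values were seen.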
